A study of Drosophila melanogaster with 2 samples.

Results

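Binding of the CG9948 protein at 10 genes of the Wingless signalling pathway was read from ChIP-seq peaks of whole Drosophila melanogaster pupae. The genes are wg, arm, dsh, fz, fz2, fz3, arr, pan, nkd and sgg, chosen by name out of 13945 annotated protein-coding genes. Earlier results of these data were known when the genes were chosen. A peak was assigned to a gene when its summit, the deposited position of its maximum, lay in the gene body or within 1 kb of one of the gene's transcription start sites (TSSs). All flies came from a single transgenic line that carries the product of the gene CG9948 fused at its C terminus to GFP, and the promoter that drives the transgene is not given in the labels. Chromatin of whole pupae aged 24 h was sheared by sonication, and the fusion protein was pulled down through its GFP, according to the description of the samples, although their antibody field names CG9948. The 2 samples are biological replicates, numbered 1 and 3, and form 1 group, so no condition can be compared. The sex of the pupae was not collected. Signals are the authors' own values for each peak on a scale that is not stated, so they are compared as ranks or percentiles within a list, and read depth is unknown.

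Wingless is the founding Wnt protein of the fly. It binds Frizzled receptors together with the co-receptor Arrow, and the signal passes through Dishevelled to a cytoplasmic complex in which the kinase Shaggy marks Armadillo for destruction. When the pathway is active, Armadillo, the fly beta-catenin, accumulates and works with the DNA-binding protein Pangolin, the fly TCF, to switch on target genes. The pathway is known for its part in patterning the imaginal tissues that form wings, legs and other adult structures.

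Of the 10 genes, 8 carried at least 1 peak of the optimal IDR list, and these 8 held 61 IDR peaks together. The optimal IDR (irreproducible discovery rate) list is the authors' most stringent list and holds 7637 peaks. Among the receptor genes, fz held 20 IDR peaks, fz2 13, the co-receptor gene arr 10 and fz3 4. The feedback inhibitor gene nkd held 8, the kinase gene sgg 4, and the ligand gene wg and the beta-catenin gene arm 1 each. The genes dsh and pan held none. Summits lay in introns for 57 of the 61 peaks, and 4 lay within 500 bp of a TSS of their own gene. Pupae were studied whole, so a peak cannot be traced to a tissue, and weak binding in many cells cannot be told apart from strong binding in few.

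**Figure D1:**
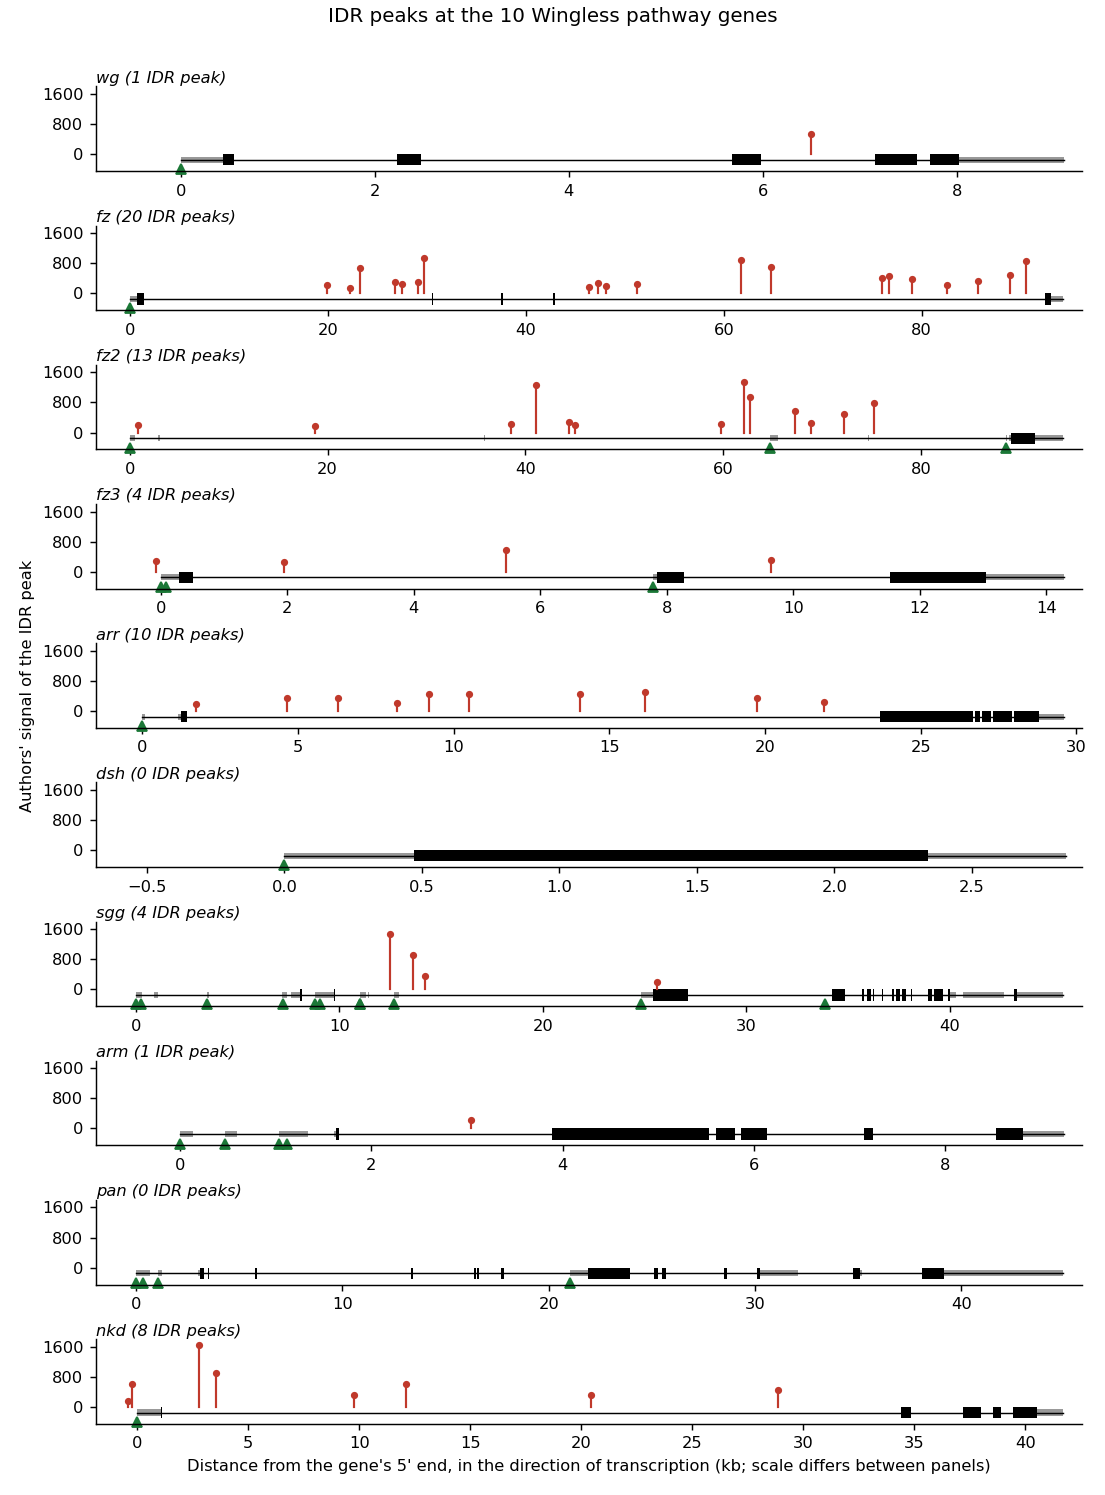
Gene maps of the 10 Wingless pathway genes with their IDR peaks. The x axis is the distance in kb from the 5′ end of each gene in the direction of transcription, red stems give the authors' signal of each IDR peak, black boxes are coding exons, grey boxes untranslated exons and green triangles TSSs. The 20 peaks of fz and the 10 of arr stand inside long introns, whereas the strongest peak of sgg stands 197 bp upstream of an internal TSS.

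The DNA under these summits was rich in A and T. The windows below hold the 50 bp on each side of a summit on the plus strand of dm6, read from the RefSeq release 6 genome, and runs of at least 6 A or T bases are in capitals. They show the strongest IDR peak of wg, fz, fz2, fz3, sgg, arm and nkd, and the strongest promoter peaks of fz3 and nkd. The last line shows the peak in a coding exon of sgg, where the base composition was different.
wg, chr2L:7313605-7313705: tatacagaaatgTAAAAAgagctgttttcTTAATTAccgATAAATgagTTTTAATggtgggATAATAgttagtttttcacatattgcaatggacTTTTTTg
fz, chr3L:14304023-14304123: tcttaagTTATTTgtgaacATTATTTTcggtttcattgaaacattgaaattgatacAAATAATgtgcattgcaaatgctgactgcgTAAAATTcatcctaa
fz2, chr3L:19173220-19173320: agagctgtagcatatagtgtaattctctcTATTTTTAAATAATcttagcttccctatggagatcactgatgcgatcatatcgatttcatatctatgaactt
fz3 intron, chrX:775353-775453: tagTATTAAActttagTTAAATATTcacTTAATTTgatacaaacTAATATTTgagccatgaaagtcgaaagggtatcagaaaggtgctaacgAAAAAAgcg
fz3 promoter, chrX:769815-769915: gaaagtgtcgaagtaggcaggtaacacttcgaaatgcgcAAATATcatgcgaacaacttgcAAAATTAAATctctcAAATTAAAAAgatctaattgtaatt
sgg, chrX:2646390-2646490: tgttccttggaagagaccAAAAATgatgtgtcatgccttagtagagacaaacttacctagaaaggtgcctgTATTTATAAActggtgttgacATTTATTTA
arm, chrX:1897551-1897651: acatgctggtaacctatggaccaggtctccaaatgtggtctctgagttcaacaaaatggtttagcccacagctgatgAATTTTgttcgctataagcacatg
nkd intron, chr3L:19042620-19042720: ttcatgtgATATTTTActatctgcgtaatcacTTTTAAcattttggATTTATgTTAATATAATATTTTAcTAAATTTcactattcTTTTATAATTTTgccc
nkd promoter, chr3L:19045606-19045706: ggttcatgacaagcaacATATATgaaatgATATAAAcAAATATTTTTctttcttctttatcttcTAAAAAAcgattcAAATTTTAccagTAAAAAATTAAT
sgg coding exon, chrX:2659507-2659607: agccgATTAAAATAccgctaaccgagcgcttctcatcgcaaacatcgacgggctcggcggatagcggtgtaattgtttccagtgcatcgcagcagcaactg

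In these windows the capitals take up 55 bases at the nkd intron peak, with a run of 16, and 50 bases at the nkd promoter peak. At arm they take up 6 bases in 1 run, and at the sgg coding exon 9 bases in 1 run. The A + T content was 78.2% in both nkd windows, 72.3% at wg, 71.3% at fz and 70.3% at the fz3 intron. It was 67.3% at fz2 and at the fz3 promoter, 64.4% at the strongest sgg peak, 56.4% at arm and 46.5% at the sgg coding exon.

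The number of genes with a peak was read against the whole annotation. By the same rule 26.0% of all 13945 protein-coding genes had an IDR peak, against 8 of these 10. The rule favours long genes, because a long body offers more room. Of the genes with a body of 20 kb or more, 5 of 6 members (fz, fz2, arr, nkd and sgg, but not pan) had an IDR peak, against 64.7% of all 1013 such genes. Between 5 and 20 kb it was 3 of 3 members (wg, arm and fz3) against 43.0% of 2471 genes, and under 5 kb 0 of 1 (dsh) against 18.3% of 10461 genes. At promoters, a window of 500 bp around each TSS that does not grow with the gene body, 3 of 10 members (fz3, nkd and sgg) had an IDR peak, against 18.0% of all genes. The larger lists of 30000 peaks each had a peak at all 10 members in the pooled list, against 50% of all genes (6974 of 13945), at 9 in replicate 1, against 49.6%, and at all 10 in replicate 3, against 52.6%. The member without a peak in replicate 1 was pan.

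The members differed more in how many peaks they held than in whether they held one. The 6 members of 20 kb or more held 55 IDR peaks, 0.154 per kb of gene region, against 0.0581 per kb over all genes of that length. The 3 members of 5 to 20 kb held 6, or 0.168 per kb, against 0.0730 per kb. Among the 1013 long genes, whose median was 1 IDR peak, 9 genes including fz held 20 or more, 41 including fz2 held 13 or more, 81 including arr held 10 or more, and 127 including nkd held 8 or more. The 4 peaks of sgg were reached by 315 of these genes. Among the 2471 genes of 5 to 20 kb, 98 including fz3 held 4 or more. Per kb, arr was the most densely occupied member, with 0.327 IDR peaks, followed by fz3 with 0.262, fz with 0.210 and nkd with 0.187. The values were 0.136 at fz2, 0.0989 at wg, 0.0976 at arm and 0.0858 at sgg.

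**Figure D2:**
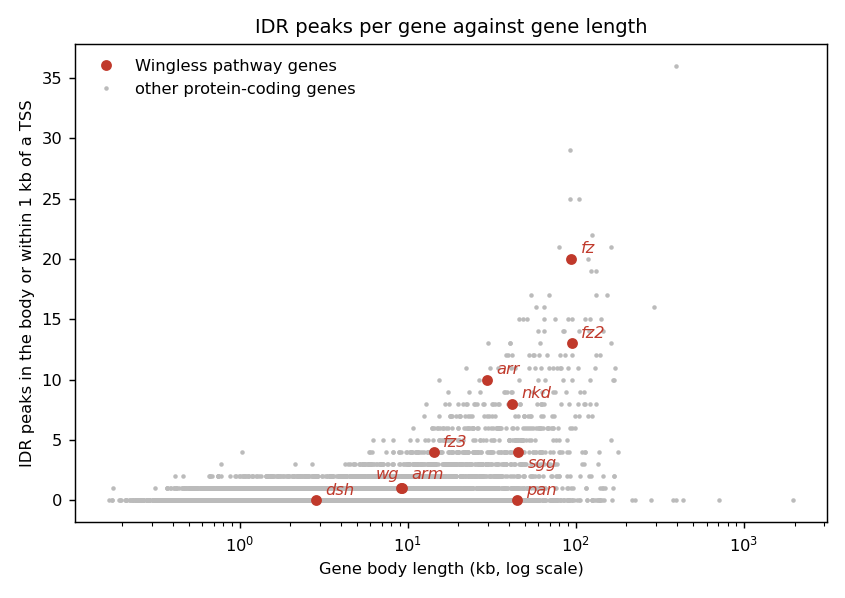
IDR peaks per gene (y axis, summit in the body or within 1 kb of a TSS) against gene body length in kb on a log scale (x axis), with the 10 Wingless pathway genes as red named points and the other protein-coding genes as grey points. At a body of 94.3 and 94.4 kb, fz and fz2 hold 20 and 13 peaks, while pan, at 44.9 kb, holds none.

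The ligand gene wg (FBgn0284084, 2L:7307159 to 7316265, plus strand) had a single IDR peak. Its summit lay at 2L:7313655, in the third intron and 6496 bp downstream of the TSS. The signal was 530 in the IDR list, 173 in replicate 1 and 368 in replicate 3, which placed the peak at percentiles 93.6 and 93.7 of the replicate lists. It was therefore about equally high among the peaks of both replicates. A weaker pooled peak stood 213 bp upstream of the wg TSS with a signal of 92.3 (rank 11627 of 30000), which replicate 3 also had (99.96) and replicate 1 did not.

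The gene fz (FBgn0001085, 3L:14274343 to 14368639, plus strand) codes for Frizzled, a receptor of Wingless that also sets planar cell polarity. Its 20 IDR peaks were confined to 2 introns. The first intron, of 29.2 kb, held 7 summits, all between 19.9 and 29.7 kb from the 5′ end of the gene, and the fourth, of 49.4 kb, held 13 between 46.4 and 90.6 kb. Within the gene body, the IDR summit nearest to the fz TSS was 19.9 kb away. The strongest, at 3L:14304073, had a signal of 942 in the IDR list, 306 in replicate 1 and 642 in replicate 3. The next were at 3L:14336054 (881, with 294 and 588 in replicates 1 and 3) and 3L:14364898 (852, with 259 and 611). All 20 were matched in both replicates, with signals of 37.9 to 306 in replicate 1 and 108 to 642 in replicate 3. The summits at 3L:14296575 and 3L:14325537 also lay at an annotated roo transposable element and at the noncoding gene lncRNA:CR45025. How uniquely reads were placed in the element was not measured. The median gap between neighbouring fz summits was 2357 bp.

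The gene fz2 (FBgn0016797, 3L:19140975 to 19235373, minus strand) codes for Frizzled 2, a receptor that binds Wingless with high affinity. All 13 of its IDR summits lay in introns upstream of its first coding base. For 11 of them the nearest TSS was an internal one, 64.7 kb from the 5′ end, with 7 summits upstream and 4 downstream of it. The strongest, at 3L:19173270, lay 2.62 kb upstream of that TSS and had a signal of 1332 in the IDR list (rank 349 of 7637), 488 in replicate 1 and 853 in replicate 3. A neighbour at 3L:19172632 had 946, 469 and 503 in the same lists, and a peak 23.6 kb upstream of the TSS, at 3L:19194276, had 1252, 390 and 868. These 3 peaks ranked in the top 10% of the IDR list, while the weakest fz2 peak, at 3L:19216637, had a signal of 168. All 13 were found in both replicates.

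The gene fz3 (FBgn0027343, X:769945 to 784222, plus strand) codes for a Frizzled family member that is itself a target of Wingless signalling in wing discs. Its 4 IDR peaks were spread along the gene. One summit lay 80 bp upstream of the 5′ TSS, at X:769865, with a signal of 294 in the IDR list, 60.2 in replicate 1 and 244 in replicate 3. The other 3 lay in introns 1.85 to 2.33 kb from a TSS, and the strongest, at X:775403, had 580, 175 and 410 in the same lists. All 4 stood at a higher percentile in replicate 3 than in replicate 1. The promoter peak differed most, at percentile 89.1 in replicate 3 and 79.8 in replicate 1.

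The gene arr (FBgn0000119, 2R:13453640 to 13483229, minus strand) codes for Arrow, the LRP5/6 co-receptor of Wingless. All 10 of its IDR summits lay in the second intron, of 22.2 kb, between 1.72 and 21.9 kb from the TSS, at a density of 0.449 per kb of that intron. None was among the strongest peaks of the experiment: signals were 194 to 513, and none of the 10 was in the strongest 25% of the IDR list. The strongest, at 2R:13467076, had 513 in the IDR list, 209 in replicate 1 and 305 in replicate 3. Of the 9 matched in both replicates, 7 stood at a higher percentile in replicate 1. The 10th, at 2R:13481510 with a signal of 194, was found in replicate 3 (156) and not in replicate 1, and it was the only IDR peak of the members that lacked a match. The summit at 2R:13476930 (334) also lay 412 bp upstream of CG43192, a gene nested in the intron.

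The gene dsh (FBgn0000499, X:11355881 to 11358724, plus strand), which codes for the adaptor Dishevelled, had no IDR peak. A peak in its 5′ UTR, with the summit 104 bp downstream of the TSS, was in the pooled list with a signal of 107 (rank 10214 of 30000). Replicate 3 had 2 peaks there, with signals of 86.1 (rank 9363) and 51.1, and replicate 1 had 1 of 18.5 at rank 24606. The promoter was thus covered in every list of 30000, and near the bottom of that of replicate 1.

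The gene sgg (FBgn0003371, X:2633952 to 2679553, plus strand) codes for Shaggy, the fly GSK3 kinase, and has 11 annotated TSSs. Of its 4 IDR peaks 3 surrounded the TSS at X:2646637, 12.7 kb from the 5′ end. The strongest, 197 bp upstream of it at X:2646440, had a signal of 1464 in the IDR list (rank 278), 447 in replicate 1 and 1020 in replicate 3. Those 959 bp and 1.51 kb downstream had 905 and 363 in the IDR list, 279 and 161 in replicate 1, and 658 and 230 in replicate 3. The fourth, at X:2659557, was the only member summit in a coding exon and was weak, with 181, 54.5 and 109 in the same lists. In other annotated sgg transcripts this position lies in an intron.

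The gene arm (FBgn0000117, X:1891401 to 1900646, minus strand), which codes for Armadillo, had 1 IDR peak in its second intron, with the summit at X:1897601, 1.92 kb downstream of the nearest TSS. Its signal was 233 in the IDR list, 73.7 in replicate 1 and 153 in replicate 3, at percentiles 83.2 and 82.0 of the replicate lists. This was a modest peak in both replicates. A pooled peak with its summit 47 bp downstream of an arm TSS had a signal of 44.3, below the IDR list.

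The gene pan (FBgn0085432, chromosome 4, 69326 to 114270, plus strand), which codes for Pangolin, had no IDR peak although its body is 44.9 kb long. Replicate 3 had 7 weak peaks there, the strongest with a signal of 69.8 (rank 11374), and replicate 1 had none. The pooled list had 1, in the 5′ UTR 178 bp downstream of a TSS, with a signal of 97.5 (rank 11083). Chromosome 4 as a whole differed between the lists, with 7 peaks in replicate 1, 196 in replicate 3, 85 in the pooled list and 13 in the IDR list. The part of this difference in the count at pan was not tested.

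The gene nkd (FBgn0002945, 3L:19003741 to 19045449, minus strand) codes for Naked cuticle, an inhibitor that Wingless signalling induces and that acts through Dishevelled. It had the strongest IDR peak of all 10 genes, at 3L:19042670 in the first intron and 2.78 kb downstream of the TSS. The signal was 1657 in the IDR list (rank 188 of 7637), 572 in replicate 1 and 1084 in replicate 3, at percentiles 99.4 and 99.3 of the replicate lists. A neighbour 3.57 kb from the TSS had 903, 335 and 581, and 4 more summits lay further into the first intron, of 33.2 kb, with IDR signals of 304 to 605. Of these, the summit at 3L:19033347 also lay at the noncoding gene lncRNA:CR45940. The promoter held 2 overlapping IDR peaks, with summits 207 and 410 bp upstream of the TSS and signals of 605 and 152. Both overlap the same strongest peak of each replicate list (147 in replicate 1 and 452 in replicate 3), so the 61 peaks form 60 separate regions.

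Peaks that fell just beyond the 1 kb limit are given for completeness. The nearest inside it that lay outside a gene body were those 80 bp upstream of fz3 and 207 and 410 bp upstream of nkd. Outside it, summits lay 1157 bp upstream of nkd with a signal of 458, 1710 bp upstream of fz with 506, and 2026 bp upstream of pan with 254. The last of these lies at the neighbouring gene RpS3A.

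The members' peaks lay near TSSs less often than the IDR peaks at genes as a whole. Introns of protein-coding genes held 57 of the 61 member summits (93.4%), against 72.6% of the 5850 IDR summits placed at any protein-coding gene by the same rule. Within 500 bp of a protein-coding TSS lay 5 of the 61 (8.20%), the one upstream of CG43192 included, against 35.2%. The median distance to the nearest TSS of the member gene itself was 14.1 kb, and TSSs of neighbouring genes were not counted in it. By gene the median was 49.6 kb over the 20 fz peaks, and from 0.875 kb (sgg) to 9.86 kb (arr) at the other members with peaks. Over the 5850 peaks the median distance to a TSS was 1.34 kb. The member and background medians may treat TSSs of neighbouring genes differently. Both sets hold genes of unequal length, and 6 of the 10 members exceed 20 kb. The part of gene length in this difference was not tested.

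In strength the members' peaks were close to the middle of the IDR list. Their median signal was 334, the 54.1th percentile of the IDR list, against 311 over all 7637 peaks. The strongest 25% of the IDR list held 17 of the 61 (27.9%) and the weakest 25% held 9 (14.8%). The medians were highest at sgg (634, n = 4 peaks), wg (530, n = 1) and nkd (524, n = 8), and lower at arr (340, n = 10), fz (315, n = 20), fz3 (299, n = 4), fz2 (288, n = 13) and arm (233, n = 1). Ranges overlapped broadly: signals ran between 181 and 1464 at sgg, 152 and 1657 at nkd, 168 and 1332 at fz2, and 153 and 942 at fz.

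Most member IDR peaks were matched in both replicates. The IDR list was itself derived from these replicate lists and the pooled list. Matches and correlations within it are therefore not independent of how its peaks were selected. The 2 nkd promoter peaks also share the same match in each replicate. Both replicate lists had a match, meaning an overlap of 50% or more of the shorter interval, for 60 of the 61 member peaks (98.4%, with a 95% Wilson interval of 91.3 to 99.7), against 6958 of 7637 (91.1%, 90.4 to 91.7) over all IDR peaks. Across the 60 peaks the Spearman correlation of the 2 replicates' signals was 0.878, against 0.826 over the 6958. These correlations run across peaks of the same 2 libraries. The percentile was higher in replicate 1 for 32 of the 60 and in replicate 3 for 28. Differences in single peaks reached 14.8 percentile points, at 3L:14301825 in fz, with a signal of 40.6 (percentile 71.4) in replicate 1 and 198 (percentile 86.2) in replicate 3. The largest difference in the other direction was at 3L:14321591 in fz, with 133 (percentile 90.9) in replicate 1 and 138 (percentile 79.9) in replicate 3.

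**Figure D3:**
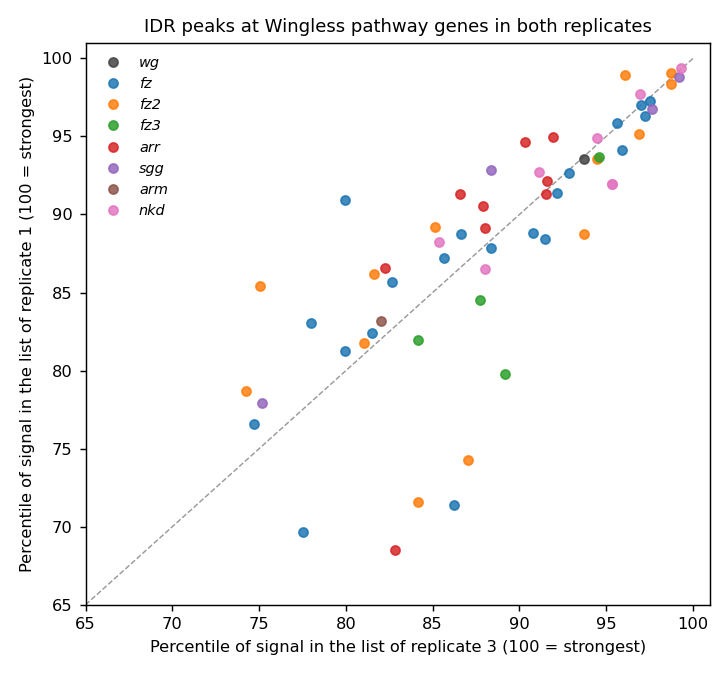
Percentile of each member IDR peak's signal in the list of replicate 1 (y axis) against replicate 3 (x axis), where 100 is the strongest of 30000 peaks, with 1 point per peak for the 60 peaks found in both and colours for genes. The strongest peaks of nkd, sgg and fz2 lie near the dashed line of equal percentile at the top right, and 5 peaks of fz, fz2 and arr lie under percentile 75 of replicate 1.

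The base composition of the printed windows held for most member peaks. Over the 61 peaks A + T content within 50 bp of the summit averaged 70.0% ± 6.87 (SD over peaks), against 69.8% ± 7.74 over all IDR peaks, and in windows centred 200 bp away 53.4%, against 54.9%. The summit was above its flanks in 58 of 61 member peaks (95.1%), against 90.2% of all. The genes' own regions had 59.5% A + T, and the 6 chromosomes 57.8%. The exceptions were the fz2 peak nearest the 5′ TSS (59.4% at the summit, 76.5% in the flanks) and 2 of the 4 sgg peaks, at X:2648143 (50.5% and 52.9%) and in the coding exon (46.5% and 48.0%). Means by gene were highest at nkd (73.0%, n = 8 peaks), wg (72.3%, n = 1), arr (71.5%, n = 10), fz2 (70.9%, n = 13) and fz (70.8%, n = 20), and lower at fz3 (68.1%, n = 4), sgg (58.4%, n = 4) and arm (56.4%, n = 1). An unbroken run of 10 or more A or T bases was in 33 of the 61 summit windows (54.1%), against 63.3% of all IDR windows.

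**Figure D4:**
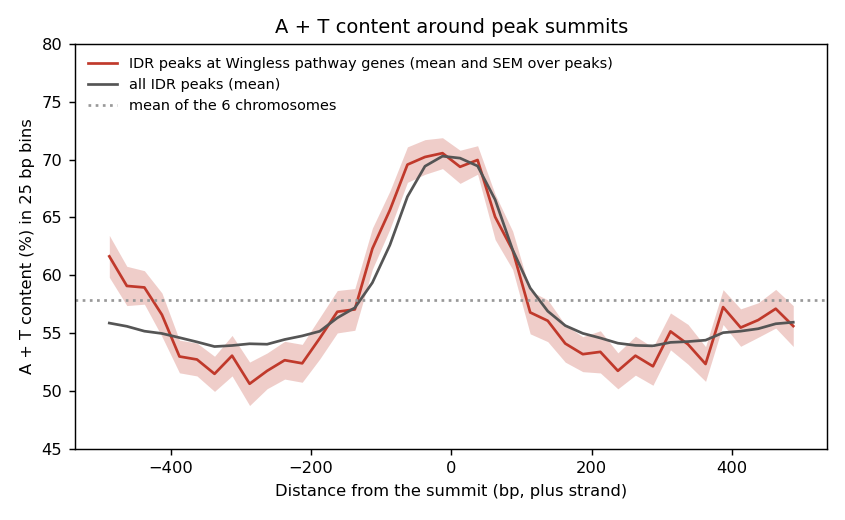
Mean A + T content in 25 bp bins (y axis) by distance from the summit in bp on the plus strand (x axis), for the 61 IDR peaks at Wingless pathway genes (red, band 1 SEM over peaks) and all 7637 IDR peaks (grey). Both curves rise to about 70% within 50 bp of the summit and are under the mean of the 6 chromosomes (dotted) in windows 200 bp away.

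Words known from Wingless target enhancers were about as rare at member summits as at all IDR summits. The letters CTTTGAT or CTTTGAA, the core of the site bound by Pangolin, were searched on both strands within 50 bp of each summit. They were found at 3 of 61 member peaks (4.92%, 95% Wilson interval 1.69 to 13.5), in fz2, arr and nkd, against 4.98% of all IDR peaks. The windows of fz2 and nkd are shown with the word in capitals, which in fz2 lies on the minus strand.
fz2, chr3L:19194226-19194326: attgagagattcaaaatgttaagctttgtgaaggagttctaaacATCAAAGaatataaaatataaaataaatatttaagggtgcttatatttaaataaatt
nkd, chr3L:19035627-19035727: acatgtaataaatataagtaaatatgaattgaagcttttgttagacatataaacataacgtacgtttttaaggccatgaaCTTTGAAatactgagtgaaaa

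The fz2 window belongs to one of the strongest member peaks (signal 1252) and the nkd window to a weaker one (304). The letters GCCGCC, the helper site of Pangolin, were in none of the 61 windows and in 0.838% of all, and TATCGATA, the DNA replication-related element, in none and in 0.314%. The GAGA factor word GAGAG was in 9 (14.8%, 7.96 to 25.7), against 7.82%, and CACTG in 11 (18.0%, 10.4 to 29.5), against 13.6%. The GAGAG interval lay just above the 7.82% of all IDR peaks. Within 100 bp of the summit GAGAG was at 15 of 61 member peaks (24.6%, 15.5 to 36.7), an interval that includes the 19.2% of all IDR peaks. All intervals cover counting error over peaks only, and CTTTGAT shares 6 letters with CTTTGAA and so is counted once per window.

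A longer list of 38 further pathway genes was read by the same rule. Of these, 15 had an IDR peak and 5 had one within 500 bp of a TSS, against 26.0% and 18.0% of all genes. By length, it was 6 of 8 genes of 20 kb or more, against 64.7% of all genes of that length, 8 of 17 of 5 to 20 kb, against 43.0%, and 1 of 13 shorter ones, against 18.3%. The counts were 3 of 6 Wnt ligand genes, 3 of 6 genes for secretion and extracellular factors, and 2 of 5 receptor genes. They were 3 of 8 cytoplasmic, 4 of 7 nuclear and 0 of 6 target genes (Dll, vg, sens, en, slp1 and Dfd). The members fz3 and nkd, which Wingless signalling also induces, are outside this list and held 4 and 8 IDR peaks. Of the listed target genes, sens, en and slp1 are under 5 kb, vg and Dfd 5 to 20 kb, and Dll 20 kb or more. The strongest peak lay 140 bp upstream of a TSS of gish, a casein kinase I gene (signal 2511, rank 47, with 764 and 1750 in replicates 1 and 3). It was followed by an intronic peak of dlp, a glypican that binds Wingless (1414, with 406 and 1019), and a peak 139 bp upstream of a TSS of gro, the Groucho corepressor (1316, with 403 and 913). Peaks of nej, the CBP acetyltransferase (925), nmo, a Nemo-like kinase (902), otk (707), dco (678), drl, the Derailed receptor (643), dally, a glypican (595), and Wnt2 (455) came next. Of these, the nej peak also lay at the noncoding gene lncRNA:CR42657 and the nmo peak at the transfer RNA gene tRNA:Ala-AGC-2-1. The glypican genes dlp and dally held 9 and 7 IDR peaks and nmo 9, in bodies of 39.0, 63.7 and 75.1 kb. In the wg cluster on 2L, Wnt4 had 1 IDR peak, of 231, Wnt10 had 2, the stronger of 232, and Wnt6 had none.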

How the data were processed

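Peak lists of 2 ChIP-seq samples (1 group, replicates 1 and 3) were used, with their positions on dm6. Per the labels, chromatin was sonicated and precipitated with an anti-GFP antibody. Per the deposited readme texts, a replicate list comes from that sample's alignments plus 1 further file, the pooled list from the alignments of both samples plus that file, and the IDR list from these 3 lists. The sources used here name no aligner, peak caller or threshold. The labels mention a possible control, which was not analysed here. The deposited signal of a peak has no stated scale. No result uses the −log10 q-value that the authors deposited, since every IDR peak has the list's maximum of 4.24. All 7637 IDR peaks are pooled peaks, and they are exactly the 7637 strongest of the 30000: the lowest IDR signal is 149.8 and the highest outside 149.7. The lists of 30000 have a common length, so their length measures no enrichment.

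Genes and TSSs came from Ensembl release 115 (BDGP6.54, dm6 coordinates) and sequence from RefSeq release 6. Positions are 1-based. A summit offset equal to the peak width was set to the last base, which affected no member peak. Genes were compared with all 13945 protein-coding genes, peaks with all IDR peaks, as counts and medians with no test, because the design has 1 group. Members, gene lists and words were chosen with earlier results of these data known. Named are all members with their peaks (in full or by range), the 10 list genes with the strongest IDR peak, and the wg cluster. Genes sharing a peak of a member, or the strongest peak of those list genes, are also named. Peak placement and overlap were tested on simulated peaks. Python 3.11.15, NumPy 2.4.6, SciPy 1.17.1 and matplotlib 3.10.9 were used.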

Additional observations from a re-analysis of the deposited data

How the results depend on the processing

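The count of members with an IDR peak was 8 in 6 of 7 alternatives, against 24.4 to 30.5% of all genes, and 7 in the strongest 50% of the IDR peaks, where arm dropped out, against 16.0%. Promoter peaks were at 2 members in the strongest 50%, against 10.2% of all genes, and at 4 within 1 kb, against 21.8%. They were at 3 in the other 4 alternatives, against 13.3 to 18.5%. Of the 38 further pathway genes, 11 had a peak in the strongest 50%, against 16.0% of all genes. There were 19 without replicate 1, against 26.1%, and 17 without replicate 3, against 24.6%. A TSS window of 2 kb gave 17, against 30.5%, and the remaining alternatives gave 15, against 24.4 to 26.9%. In the strongest 50% of IDR peaks the member peaks numbered 34 in place of 61, all 34 (100%) were found in both replicates, and mean summit A + T was 71.5%. Without a replicate, the strongest 7637 peaks of the other list gave 56 to 61 member peaks, a median percentile of 54.3 to 63.6 and a mean A + T of 69.9 to 70.3%. The percentile of 63.6 is without replicate 3. The added alternative without fz and fz2, chosen after seeing the data, gave 69.1% A + T. Windows of 100 bp around the summit held the Pangolin core words at 7 of 61 member peaks (11.48%) in place of 3 (4.92%), against 9.40% in place of 4.98% of all IDR peaks. The strongest 7637 pooled peaks are the IDR peaks themselves, so that alternative could not differ. No paired analysis was possible because there is 1 group. Read depth, which would bound how weak a peak these lists could show at dsh and pan, is unknown.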

Other observations

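In the neighbourhood of the ligand gene, most IDR peaks lay outside the Wnt genes counted here. The cluster from Wnt4 to Wnt10, which includes wg and Wnt6, spans 122 kb (2L:7255419 to 7377528) and holds 16 IDR peaks. Of these, 12 lay outside the bodies and 1 kb TSS windows of all 4 genes. The length of the span outside these regions was not computed, and other genes in the span were not considered. Over the genome, 5850 of the 7637 IDR peaks lay at some protein-coding gene, a wider set than these 4. The strongest of the 16, at 2L:7358202 between Wnt6 and Wnt10, had a signal of 1294 in the IDR list (rank 387). It had 420 in replicate 1 and 866 in replicate 3. A group of 6 lay 3225 bp or more downstream of wg, between 2L:7319490 and 2L:7323172, with IDR signals of 156 to 512, each found in both replicates.

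The genes nkd and fz2 lie near each other on 3L, 95.5 kb apart. The interval between them held 13 IDR peaks (0.136 per kb), against 57.0 per Mb over the 6 chromosomes. Of the 13, 2 are the promoter peaks already counted at nkd. The strongest in the interval had a signal of 855 (rank 936). Other protein-coding genes also lie in this interval, among them Sfxn2, Mkp3, Naxd and Gem2. Apart from the 2 promoter peaks, its peaks were not assigned to nkd or fz2.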
